A study of Homo sapiens with 24 samples.

Results

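The genes described here are 36 genes of the response to low oxygen and of glycolysis, read on Illumina bead arrays in 2 human cell lines. They were chosen by name: every feature of the deposited log2 table that carries 1 of the 36 gene symbols was taken, and it was kept where it was detected above background on all 3 arrays of at least 1 group (detection p under 0.05). This left 53 of the 47323 features on the array. The 53 features stand for 33 genes, 15 of them hypoxia-inducible or oxygen-sensing genes and 18 of them glycolysis genes. PDK1, a kinase that limits the entry of pyruvate into mitochondria, has 1 feature, which was detected on 6 of 24 arrays and never on all 3 of a group. CA9 and INSIG2P1 are not analysed here, since no feature carries their symbol in the annotation used. Each gene was described by its brightest kept feature, and the other features of the gene are given where they differ.

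HaCaT is an immortalised, nontransformed line of skin keratinocytes, used in the study to stand for normal mucosal epithelium, and SCC-61 is a line from a squamous cell carcinoma of the head and neck. All cells were first held in medium with 1% serum, and then received nothing (untreated) or 2 µg/ml AMP-18, a protein of the gastric antral mucosa, for 2 h or 24 h. Each of the 8 combinations of line, treatment and time has 3 arrays, 24 in all. The comparison of lines and the comparison of times used untreated cells, and AMP-18 was compared with no treatment in the same line at the same time. Each group is 1 cell line, and the growth media differed between the lines (hydrocortisone was named for SCC-61 only), so line and medium cannot be told apart. The labels do not say whether the 3 arrays of a group came from separate cultures, and p-values measure only the spread between these arrays, which may be technical.

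Cells make the transcription factor subunit HIF-1 alpha (HIF1A) all the time and destroy it when oxygen is present: the prolyl hydroxylases EGLN1 and EGLN3 mark it with the help of oxygen, and the VHL ubiquitin ligase removes it. When oxygen or hydroxylase activity is low, the protein is stabilised, pairs with ARNT and binds a short core element near its target genes, which include most glycolytic enzymes, the secreted factors VEGFA and ADM and the mitophagy receptors BNIP3 and BNIP3L. HIF1A is controlled mostly as a protein, and its targets also answer to other factors, so an mRNA level reads neither oxygen nor HIF activity.

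The core element reads ACGTG or GCGTG, and it was searched on both strands of the 250 bases before each start site in the RefSeq promoter windows of build GRCh38.p14. Of the 33 genes, 30 had at least 1 window and 27 of these 30 held the core in a window. The share of all genes with the core in a window was not counted. A gene with several windows has more places to hold it, and many of these genes were chosen as HIF targets. Counted by window, 35 of 55 windows of these genes (63.6%) and 15172 of all 35116 windows (43.2%) held it, and several windows of a gene can overlap. The windows below belong to the 4 genes with a window that rose most from 2 h to 24 h in untreated HaCaT cells, with the core in capitals, read as ACGTG or GCGTG on the printed strand and as CACGT or CACGC for the other strand. In the stretch CACGTG a match on each strand overlaps.
ALDOC, chr17:28576896-28577145, minus strand: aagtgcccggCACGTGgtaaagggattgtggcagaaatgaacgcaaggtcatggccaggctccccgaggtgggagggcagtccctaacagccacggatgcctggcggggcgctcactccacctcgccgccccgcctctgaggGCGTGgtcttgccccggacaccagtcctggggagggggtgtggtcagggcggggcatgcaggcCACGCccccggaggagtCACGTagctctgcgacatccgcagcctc
BHLHE40, chr3:4979187-4979436, plus strand: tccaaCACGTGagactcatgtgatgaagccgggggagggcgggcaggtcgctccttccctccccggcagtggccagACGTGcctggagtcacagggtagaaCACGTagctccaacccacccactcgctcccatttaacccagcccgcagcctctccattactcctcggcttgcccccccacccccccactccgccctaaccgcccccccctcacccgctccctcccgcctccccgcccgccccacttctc
BNIP3, chr10:131981924-131982173, minus strand: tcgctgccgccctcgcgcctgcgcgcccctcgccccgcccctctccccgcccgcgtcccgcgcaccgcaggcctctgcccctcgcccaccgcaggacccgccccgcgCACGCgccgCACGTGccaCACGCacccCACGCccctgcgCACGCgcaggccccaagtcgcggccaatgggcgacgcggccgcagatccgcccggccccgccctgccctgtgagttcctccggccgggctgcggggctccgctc
PFKFB4, chr3:48556804-48557053, minus strand: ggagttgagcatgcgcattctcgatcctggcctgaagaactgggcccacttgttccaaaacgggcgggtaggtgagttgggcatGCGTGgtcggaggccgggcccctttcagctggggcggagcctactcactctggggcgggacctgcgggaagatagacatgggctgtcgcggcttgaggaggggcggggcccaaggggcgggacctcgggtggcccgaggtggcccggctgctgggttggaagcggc
The windows of ALDOC, BHLHE40, BNIP3 and PFKFB4 held 5, 4, 6 and 1 matches. The windows of HK2, which fell in HaCaT cells, held 3 and 6. A match is a description of these letters and names no site in use.

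Per array, 18767 to 22161 features (39.7% to 46.8%) were detected, and arrays of a group correlated at 0.99 or more. Arrays of different groups correlated at up to 0.9955. Replicate 3 of HaCaT cells with AMP-18 had the fewest detected features, 18791 at 2 h and 18767 at 24 h. All other arrays had 19721 or more. The lowest correlation within a group, 0.9905, was that of replicates 1 and 3 of HaCaT cells with AMP-18 at 24 h. Of the 33 genes, 30 were detected on all 24 arrays, and EGLN3, CA12 and MXI1 passed only through the groups where they are high. Of 10 keratinocyte markers, 7 had a feature and all 7 were detected in every group, with a summed intensity of 11400 to 17400 in HaCaT and 9390 to 13200 in SCC-61 arrays. Between the untreated lines at 2 h, 3 of the 7 were higher and 4 lower in SCC-61 cells. None of the fibroblast or endothelial markers was detected on all 3 arrays of HaCaT cells at 2 h. Of 8 fibroblast markers, 4 were kept, and their summed intensity moved with line and time, from 54.5 to 61.4 in untreated HaCaT cells at 2 h to 289 to 333 at 24 h, and from 166 to 200 to 326 to 381 in SCC-61 cells. The 2 kept endothelial markers rose in sum from 22.7 to 31.7 to 143 to 159 in untreated HaCaT cells and lay between 33.9 and 46.4 in untreated SCC-61 cells. All 5 general epithelial markers were detected in HaCaT cells and 4 or 5 in SCC-61 cells (sums of 10100 to 15500 and 7370 to 9150), and of 6 leukocyte markers 2 were kept, with a sum of 57.1 to 122. The part of these markers in the results below was not tested. In such bulk samples, fewer cells that make an RNA and less RNA per cell cannot be told apart.

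Untreated HaCaT cells carried much more RNA of several of these genes at 24 h than at 2 h, and in untreated SCC-61 cells part of the genes moved the other way. ALDOC, the aldolase isoform best known from brain, rose 29.1-fold in HaCaT cells and stood at 1.18-fold in SCC-61 cells. BHLHE40, NDRG1 and PFKFB4 rose in both lines. VEGFA and ERO1A rose in SCC-61 cells and fell in HaCaT cells, and BNIP3 did the reverse. In HaCaT cells 18 of the 33 genes rose and 8 fell, where 33.1% of the 12221 genes tested rose and 31.5% fell, by limma with p-values adjusted over all kept features (adjusted p under 0.05). The 8 include CA12, which was below background in HaCaT cells at both times. In SCC-61 cells 15 rose and 11 fell, against 29% and 29% of all genes. Among the 30 genes detected on all 24 arrays, a count added after the data were seen, 17 rose and 7 fell in HaCaT cells and 14 rose and 10 fell in SCC-61 cells. The median log2 fold change of the 33 genes was 0.30 in HaCaT cells (0.018 over all genes) and 0.06 in SCC-61 cells (-0.005 over all genes). The size of change, whatever its sign, had a median of 0.55 in HaCaT cells (0.39 over all genes) and 0.31 in SCC-61 cells (0.31 over all genes).

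The labels give no batch, slide or scan, and a batch shared by all arrays of 1 time cannot be told apart from the time. The difference between the lines in their time course was tested in its own right. It was more positive in SCC-61 cells for 5 genes (22% of all genes) and more negative for 18 (23.6% of all genes), or for 5 and 16 of the 30 genes. The median of this difference was -0.33 over the 33 genes and -0.012 over all genes.

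**Figure D1:**
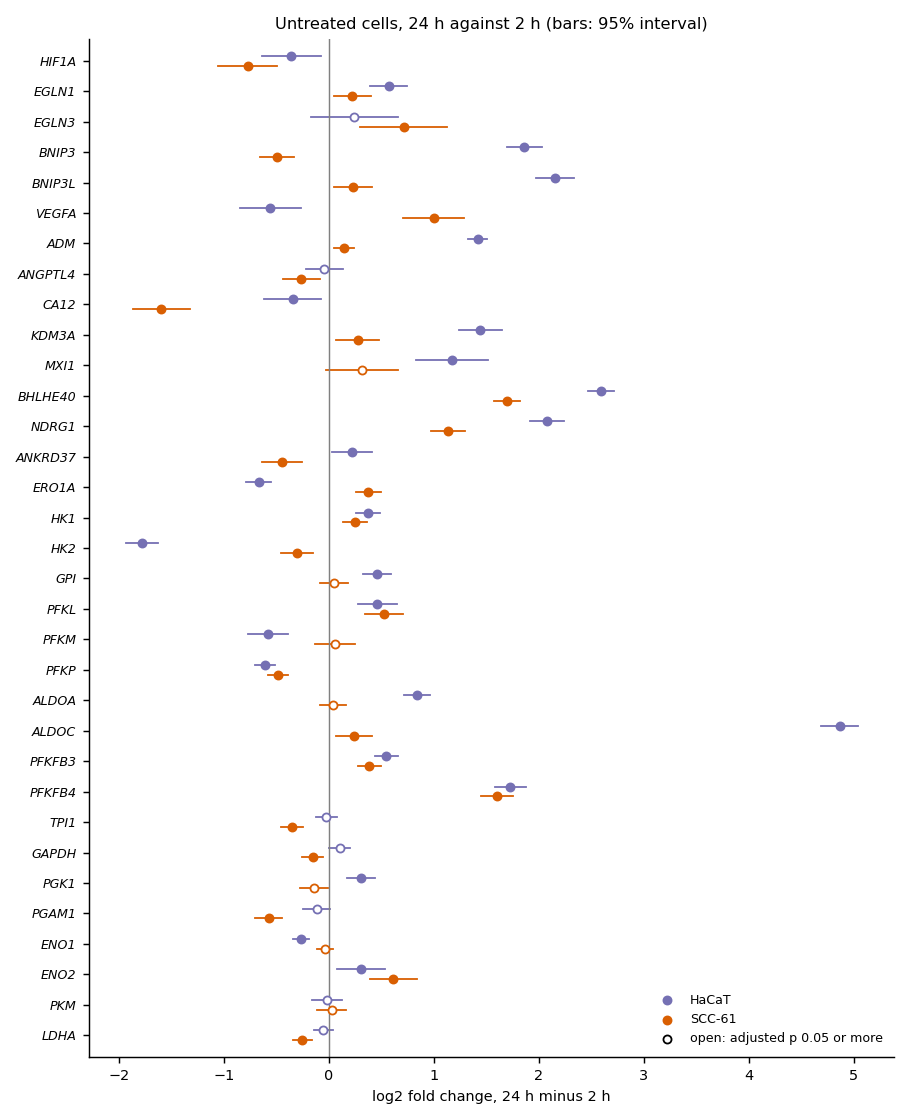
Log2 fold change from 2 h to 24 h in untreated HaCaT (purple) and SCC-61 (orange) cells for the 33 genes, with 95% intervals of the limma fit and open points where the adjusted p was 0.05 or more. ALDOC in HaCaT cells, at 4.87, lies apart from all other points, and VEGFA, ERO1A and BNIP3 lie on opposite sides of 0 in the lines.

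At 2 h, untreated SCC-61 cells had more RNA than untreated HaCaT cells for 19 of the 33 genes and less for 7, where 31.3% of all genes were higher and 32% lower. Of the 15 hypoxia-inducible or oxygen-sensing genes 12 were higher and 0 lower in SCC-61 cells, and of the 18 glycolysis genes 7 were higher and 7 lower. Without EGLN3, CA12 and MXI1, 10 of 12 hypoxia-inducible genes were higher and 0 lower at 2 h. At 24 h, 12 of the 33 were higher and 14 lower in SCC-61 cells, where 33.9% of all genes were higher and 36.6% lower. The hypoxia-inducible group then had 8 higher and 6 lower genes, and the glycolysis group 4 higher and 8 lower, and without the same 3 genes the hypoxia-inducible group had 6 higher and 5 lower. The median log2 fold change of the 33 genes was 0.27 at 2 h (-0.012 over all genes) and -0.05 at 24 h (-0.036 over all genes). The comparison of lines at each time and the comparison of times in each line share arrays and are not independent.

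**Figure D2:**
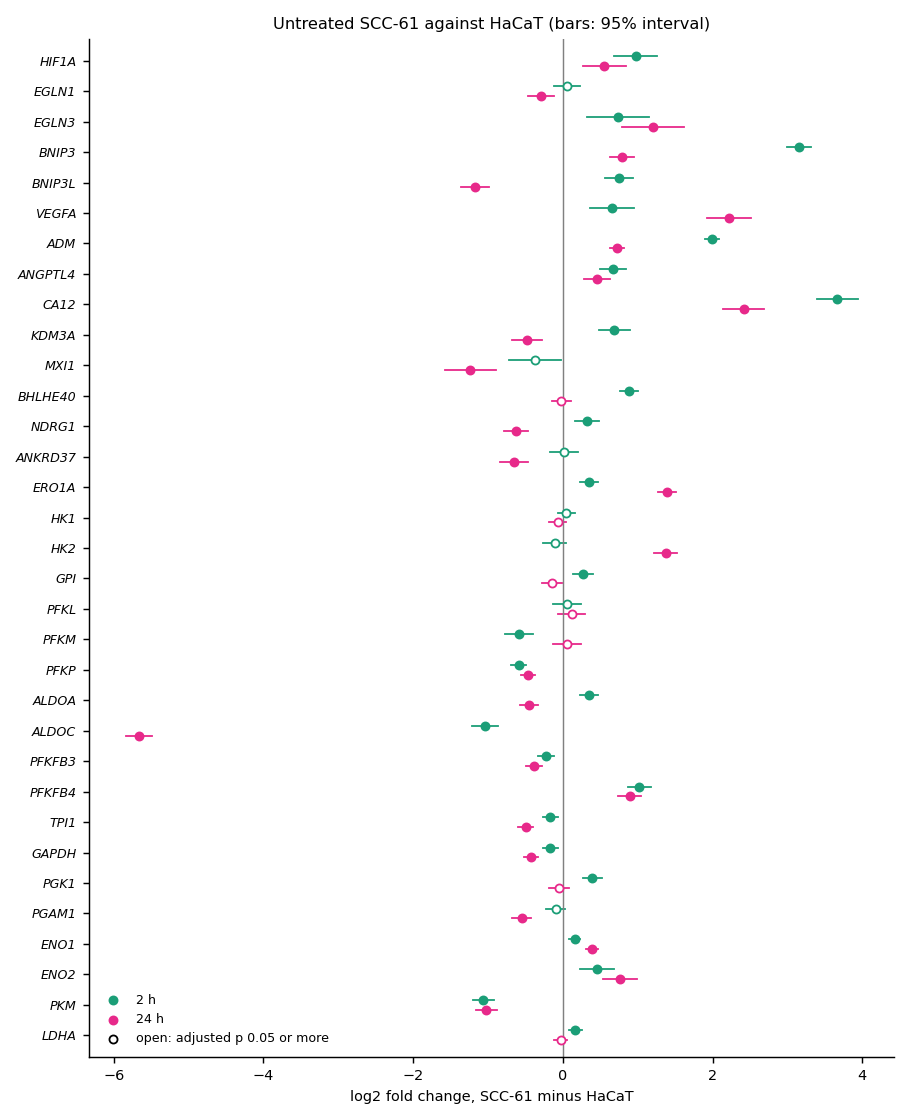
Log2 fold change of SCC-61 against HaCaT in untreated cells at 2 h (green) and 24 h (pink), with 95% intervals of the limma fit and open points where the adjusted p was 0.05 or more. CA12 and BNIP3 have the highest values at 2 h, and ALDOC at 24 h has the lowest, -5.67.

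HIF1A, the regulated subunit of the factor, had log2 intensities of 7.63, 7.61 and 7.49 in untreated HaCaT cells at 2 h and 7.38, 7.19 and 7.08 at 24 h. In untreated SCC-61 cells the values were 8.47, 8.52 and 8.65 at 2 h and 8.19, 7.22 and 7.91 at 24 h. SCC-61 cells were higher at both times (0.97 at 2 h, adjusted p = 5.43e-07, and 0.55 at 24 h, adjusted p = 0.000876), with arrays that did not overlap at 2 h and overlapped at 24 h through 1 SCC-61 array, replicate 2. Its level fell from 2 h to 24 h in SCC-61 cells (-0.78, adjusted p = 2.18e-05), and without the low array, replicate 2 at 24 h, the value was -0.50. Without replicate 1 of the same group the line difference at 24 h was 0.35. In HaCaT cells the value was -0.36 (adjusted p = 0.0282), and it did not pass without replicate 2 or 3 at 24 h (-0.35 and -0.29) or replicate 1 or 2 at 2 h (-0.33 and -0.34). The other 2 features of HIF1A gave -0.50 and -0.09 in SCC-61 cells and -0.22 and 0.13 in HaCaT cells, and of these 4 values the first passed the test. The difference of the time courses was -0.42 and did not pass (adjusted p = 0.0928).

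EGLN1, the main hydroxylase that marks HIF-1 alpha, read 6.04, 6.03 and 5.99 at 2 h and 6.61, 6.62 and 6.54 at 24 h in untreated HaCaT cells. In SCC-61 cells it read 6.18, 5.83 and 6.21 at 2 h and 6.22, 6.33 and 6.34 at 24 h. It rose in HaCaT cells, with no overlap (log2 fold change 0.57, SE 0.0858, adjusted p = 1.17e-06). The value in SCC-61 cells was 0.22 (adjusted p = 0.0316), and without replicate 2 at 2 h, which read 5.83, it was 0.10 and did not pass. It did not pass either without replicate 2 or 3 at 24 h (0.20 and 0.20). The difference between lines was -0.35 (adjusted p = 0.0225) and was lost without SCC-61 replicate 1 at 24 h (-0.31) or replicate 1 or 3 at 2 h (-0.30 and -0.28). At 24 h EGLN1 was lower in SCC-61 than in HaCaT cells (-0.29, adjusted p = 0.00352).

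EGLN3, a second HIF hydroxylase that is itself a HIF target, was not detected on any HaCaT array. It was detected on 1 of 3 untreated SCC-61 arrays at 2 h and on all 3 at 24 h. The SCC-61 values were 4.10, 4.32 and 4.62 at 2 h and 5.02, 4.98 and 5.18 at 24 h, and no HaCaT value was above 4.32. The values at 2 h and 24 h did not overlap, and since the group at 2 h was mostly below background no fold is given between them. At 24 h EGLN3 was at least 1.61-fold higher in SCC-61 than in HaCaT cells, a bound set by the lowest detected signal of each HaCaT array. At 2 h both lines lay mostly below background, and no difference between them is read, although the fit called one and it stands in the counts above.

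BNIP3 and BNIP3L, outer mitochondrial membrane proteins that mark mitochondria for removal, parted between the lines. BNIP3 read 6.17, 6.13 and 6.45 at 2 h and 8.02, 8.15 and 8.17 at 24 h in untreated HaCaT cells. It read 9.36, 9.43 and 9.43 at 2 h and 8.89, 9.02 and 8.81 at 24 h in SCC-61 cells. Every SCC-61 array was above every HaCaT array of either time. It rose 3.64-fold in HaCaT cells (log2 fold change 1.86, SE 0.0797, adjusted p = 1.51e-18) and fell in SCC-61 cells (-0.50, adjusted p = 4.16e-06), a difference of -2.36 (adjusted p = 1.99e-16). The excess in SCC-61 cells was 8.9-fold at 2 h (log2 fold change 3.15, SE 0.0797, adjusted p = 3.99e-24) and 1.73-fold at 24 h.

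BNIP3L read 6.97, 6.69 and 6.92 at 2 h and 8.99, 9.06 and 9.003 at 24 h in HaCaT cells. In SCC-61 cells the values were 7.67, 7.59 and 7.57 at 2 h and 7.93, 7.66 and 7.93 at 24 h. SCC-61 arrays were above HaCaT arrays at 2 h (0.75) and below them at 24 h (-1.17, adjusted p = 9.76e-13), so the order of the lines turned. The rise in HaCaT cells was 4.45-fold (log2 fold change 2.15, SE 0.0892, adjusted p = 6.78e-19), and its other feature gave 1.35 there. That feature was also lower in SCC-61 cells at 24 h (-0.71), and at 2 h it gave 0.15 and did not pass. In SCC-61 cells the arrays of the 2 times overlapped by the first feature. Its change of 0.23 was lost on leaving out replicate 1 or 3 at 24 h (0.18 and 0.19) or replicate 2 or 3 at 2 h (0.22 and 0.21). The second feature had means of 4.83 at 2 h and 5.33 at 24 h in untreated SCC-61 cells, and its arrays did not overlap. The difference of the time courses was -1.92 by the first feature (adjusted p = 2.78e-13) and smaller in size by the second.

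**Figure D3:**
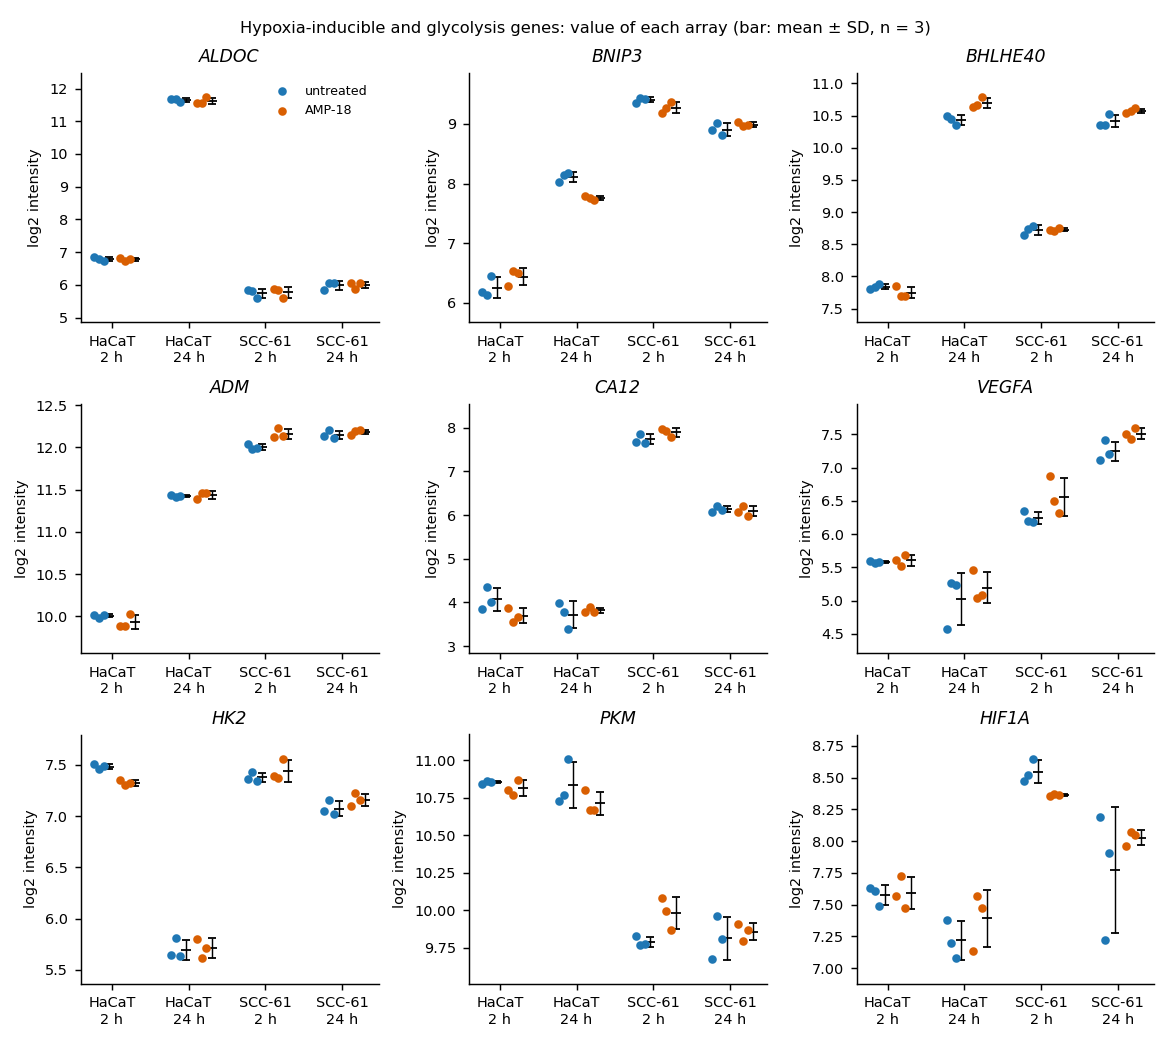
Log2 intensity on each of the 24 arrays for 9 of the genes, by line and time, with untreated arrays in blue and AMP-18 arrays in orange, and with the mean and SD of each 3 arrays in black (each panel has its own axis). For ALDOC, BHLHE40 and ADM the step from 2 h to 24 h in HaCaT cells (4.87, 2.59 and 1.42 in untreated cells) is larger than the distance between treated and untreated arrays of any group, and HIF1A in untreated SCC-61 cells at 24 h has the widest range of 3 arrays, 7.22 to 8.19.

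VEGFA, the growth factor of blood vessels, read 5.59, 5.57 and 5.59 at 2 h and 4.57, 5.26 and 5.23 at 24 h in untreated HaCaT cells. It read 6.35, 6.20 and 6.18 at 2 h and 7.12, 7.41 and 7.20 at 24 h in SCC-61 cells. All SCC-61 arrays were above all HaCaT arrays, and the gap widened from 1.58-fold at 2 h to 4.66-fold at 24 h (2.22, adjusted p = 1.93e-14). It rose in SCC-61 cells (log2 fold change 0.999, SE 0.143, adjusted p = 6.88e-07) and fell in HaCaT cells (log2 fold change -0.56, SE 0.143, adjusted p = 0.00117), where without replicate 1 at 24 h, the lowest array, the value was -0.34. The other kept feature gave 0.91 in SCC-61 cells and 0.15, not past the threshold, in HaCaT cells, where it was detected on 1 array at 24 h and none at 2 h. The difference of the time courses was 1.56 (adjusted p = 2.62e-07), and 0.76 for that feature.

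ADM encodes adrenomedullin, a vasodilator peptide, and was among the brighter hypoxia-inducible genes. Untreated HaCaT arrays read 10.02, 9.99 and 10.02 at 2 h and 11.44, 11.41 and 11.42 at 24 h. Untreated SCC-61 arrays read 12.04, 11.98 and 11.995 at 2 h and 12.13, 12.21 and 12.12 at 24 h. SCC-61 cells were 4-fold higher at 2 h (log2 fold change 1.999, SE 0.0453, adjusted p = 2.64e-25) and 1.66-fold higher at 24 h. ADM rose 2.67-fold in HaCaT cells (log2 fold change 1.42, SE 0.0453, adjusted p = 1.39e-21) and by 0.14 on the log2 scale in SCC-61 cells (adjusted p = 0.008), a change lost without replicate 2 at 24 h (0.12). The difference of the time courses was -1.27 (adjusted p = 6.97e-16).

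ANGPTL4, a secreted inhibitor of lipoprotein lipase, was higher in SCC-61 cells at 2 h (0.67, adjusted p = 7.82e-08) and at 24 h (0.45, adjusted p = 3.25e-05). Its second kept feature gave 0.06 and -0.05, neither past the threshold. The change over time was -0.27 in SCC-61 cells, and -0.17 and not past the threshold without replicate 1 at 24 h. In HaCaT cells it was -0.05 (adjusted p = 0.68).

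CA12, a carbonic anhydrase of the cell surface that helps to set the pH outside the cell, was not detected on any HaCaT array. Untreated SCC-61 arrays read 7.68, 7.86 and 7.66 at 2 h and 6.08, 6.21 and 6.12 at 24 h. Its level was at least 10.1-fold higher in SCC-61 than in HaCaT cells at 2 h and at least 3.4-fold higher at 24 h, bounds set as for EGLN3. These bounds are those of the brighter feature. The second had means of 5.46 at 2 h and 4.46 at 24 h in untreated SCC-61 cells. At 24 h this was close to the lowest detected signals of untreated HaCaT arrays, 4.36 to 4.39. CA12 fell 3.03-fold in SCC-61 cells (log2 fold change -1.60, SE 0.134, adjusted p = 2.26e-11), and its second feature gave -0.999. The fit also called CA12 lower at 24 h in HaCaT cells, where both groups were below background, so no fold is given. That call was lost without replicate 3 at 24 h (-0.18) or replicate 2 at 2 h (-0.20).

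BHLHE40, a helix-loop-helix repressor that is induced by HIF and also by the circadian clock and by differentiation, had the largest rise in SCC-61 cells and the largest in HaCaT cells after ALDOC among the 33 genes. It read 7.81, 7.84 and 7.88 at 2 h and 10.50, 10.45 and 10.35 at 24 h in HaCaT cells. It read 8.64, 8.74 and 8.79 at 2 h and 10.36, 10.36 and 10.53 at 24 h in SCC-61 cells. At 24 h the lines overlapped (-0.02, adjusted p = 0.791, 95% interval -0.14 to 0.10). The rise was 6.04-fold in HaCaT cells (log2 fold change 2.59, SE 0.0604, adjusted p = 7.24e-25) and 3.23-fold in SCC-61 cells (log2 fold change 1.69, SE 0.0604, adjusted p = 1.14e-19), and the difference was -0.90 (adjusted p = 7.47e-10).

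KDM3A, a histone demethylase that is a HIF target, read 5.69, 5.58 and 5.34 at 2 h and 6.90, 6.93 and 7.10 at 24 h in HaCaT cells. It read 6.16, 6.24 and 6.28 at 2 h and 6.51, 6.60 and 6.38 at 24 h in SCC-61 cells. SCC-61 cells were higher at 2 h (0.69) and lower at 24 h (-0.48, adjusted p = 0.000102), the same turn in order as for BNIP3L. The rise was 1.44 in HaCaT cells (adjusted p = 1.31e-13). The SCC-61 value was 0.27 (adjusted p = 0.0218) and was lost without replicate 1 or 2 at 24 h (0.27 and 0.22) or replicate 1 at 2 h (0.24). The difference was -1.17 (adjusted p = 7.07e-08).

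MXI1, a partner of MAX that opposes MYC, was detected on all 3 arrays only in HaCaT cells at 24 h, at 5.46, 5.43 and 5.44 untreated. It was not detected in untreated HaCaT cells at 2 h, and the rise was at least 2.06-fold. At 24 h the untreated SCC-61 arrays read 4.23, 3.91 and 4.49, all below the HaCaT arrays, 1 of the 3 detected it, and no fold is given against these values near background. Its second kept feature was not detected in untreated cells at 2 h.

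NDRG1, a cytoplasmic protein of stress and differentiation, read 7.82, 7.72 and 7.81 at 2 h and 9.85, 9.92 and 9.81 at 24 h in HaCaT cells. It read 8.15, 8.13 and 8.01 at 2 h and 9.34, 9.14 and 9.20 at 24 h in SCC-61 cells. It rose 4.23-fold in HaCaT cells (log2 fold change 2.08, SE 0.0786, adjusted p = 7.48e-20) and 2.19-fold in SCC-61 cells (log2 fold change 1.13, SE 0.0786, adjusted p = 3.99e-13), with a difference of -0.95 (adjusted p = 4.48e-08). SCC-61 cells were above HaCaT cells at 2 h (0.32) and below them at 24 h (-0.63, adjusted p = 3.21e-08).

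ERO1A, which oxidises protein disulphide isomerase in the endoplasmic reticulum, read 8.71, 8.65 and 8.66 at 2 h and 8.03, 8.03 and 7.94 at 24 h in HaCaT cells. It read 9.0, 9.02 and 9.04 at 2 h and 9.31, 9.44 and 9.44 at 24 h in SCC-61 cells. As with VEGFA, all SCC-61 arrays were above all HaCaT arrays and the gap widened, from 0.35 to 1.39 (adjusted p = 7.51e-19). It rose in SCC-61 cells (log2 fold change 0.37, SE 0.0588, adjusted p = 3.23e-06) and fell in HaCaT cells (log2 fold change -0.67, SE 0.0588, adjusted p = 2.92e-11), a difference of 1.05 (adjusted p = 1.95e-11).

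ANKRD37, an ankyrin repeat protein, read 5.87, 5.79 and 5.73 at 2 h and 6.03, 6.04 and 5.99 at 24 h in HaCaT cells. It read 5.71, 5.80 and 5.92 at 2 h and 5.41, 5.32 and 5.35 at 24 h in SCC-61 cells. It fell in SCC-61 cells (log2 fold change -0.45, SE 0.0925, adjusted p = 0.000142) and was lower there than in HaCaT cells at 24 h (-0.66, adjusted p = 3.02e-07). In HaCaT cells the value was 0.22 (adjusted p = 0.043) and was lost on leaving out any of the 3 arrays at 24 h (0.21 to 0.23) or replicate 2 or 3 at 2 h (0.22 and 0.19).

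In glycolysis, the largest change of any of the 33 genes was that of ALDOC, which splits the sugar phosphate in mid-pathway. It read 6.86, 6.78 and 6.73 in untreated HaCaT cells at 2 h and 11.69, 11.68 and 11.59 at 24 h. It read 5.85, 5.80 and 5.59 at 2 h and 5.83, 6.06 and 6.06 at 24 h in SCC-61 cells. The HaCaT arrays at 24 h stood apart from all others by more than 4 log2 units. The rise was 29.1-fold (log2 fold change 4.87, SE 0.0848, adjusted p = 7.91e-28), the fifth largest change of 12221 genes in HaCaT cells, and the difference from the time course of SCC-61 cells (-4.63, adjusted p = 2.3e-22) was the second largest of 12221. SCC-61 cells were below HaCaT cells at 2 h (-1.04) and 50.9-fold below at 24 h (log2 fold change -5.67, SE 0.0848, adjusted p = 4.49e-30). In SCC-61 cells the arrays of the 2 times overlapped, and the value of 0.24 was lost without replicate 2 or 3 at 24 h (0.20 and 0.20) or replicate 3 at 2 h (0.16). Only 1 feature carries the symbol, so the rise has no second feature to set beside it.

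ALDOA, the main aldolase, rose in the same cells by less. It read 11.72, 11.75 and 11.66 at 2 h and 12.59, 12.53 and 12.52 at 24 h in HaCaT cells (log2 fold change 0.84, SE 0.0591, adjusted p = 2.2e-13). Its second feature gave 0.43. In SCC-61 cells the value was 0.04 (95% interval -0.08 to 0.16). ALDOA was higher in SCC-61 cells at 2 h (0.34) and lower at 24 h (-0.46, adjusted p = 6.96e-08), and the second feature gave -0.03, not past the threshold, at 2 h and -0.34 at 24 h.

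HK2, the inducible hexokinase that commits glucose to the pathway, had the largest fall of the 33 genes in HaCaT cells. It read 7.50, 7.46 and 7.49 at 2 h and 5.65, 5.81 and 5.64 at 24 h in HaCaT cells. It read 7.36, 7.43 and 7.34 at 2 h and 7.05, 7.16 and 7.02 at 24 h in SCC-61 cells. The HaCaT arrays at 24 h were the lowest, and the HaCaT and SCC-61 values at 2 h differed by -0.11, which did not pass (adjusted p = 0.241). It fell 3.44-fold in HaCaT cells (log2 fold change -1.78, SE 0.0749, adjusted p = 9.43e-19) and 1.23-fold in SCC-61 cells (-0.30, adjusted p = 0.00104). The difference was 1.48 (adjusted p = 1.92e-12). The second feature of HK2 gave a fall of -0.40 in HaCaT cells, past the threshold, and a difference between lines of 0.22, which was not. At 24 h SCC-61 cells were 2.6-fold higher (1.38), and 0.44 by the second feature.

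The other upstream enzymes changed less. HK1, the housekeeping hexokinase, gave 0.37 in HaCaT and 0.25 in SCC-61 cells over time, and its second kept feature gave -0.18 and -0.30, neither past the threshold. GPI, which makes fructose phosphate, rose in HaCaT cells (0.46, adjusted p = 4.8e-07), with 0.05 in SCC-61 cells (adjusted p = 0.592). The 3 isoforms of phosphofructokinase, which sets the pace of the pathway, did not move alike. PFKL rose in both lines (0.46 in HaCaT, adjusted p = 5.5e-05, and 0.52 in SCC-61, adjusted p = 1.17e-05). PFKP fell in both lines (-0.61, adjusted p = 2.71e-12, and -0.49, adjusted p = 7.14e-10). PFKM fell in HaCaT cells (-0.58, adjusted p = 3.24e-06) and was at 0.06 in SCC-61 cells (adjusted p = 0.627).

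PFKP read 10.65, 10.72 and 10.70 at 2 h and 10.10, 10.08 and 10.05 at 24 h in HaCaT cells. It read 10.10, 10.11 and 10.09 at 2 h and 9.57, 9.62 and 9.65 at 24 h in SCC-61 cells. It was lower in SCC-61 cells at both times (-0.59 and -0.46), with no overlap between the lines at either time. PFKM read 7.999, 7.82 and 7.97 in HaCaT cells at 2 h and 7.38, 7.39 and 7.27 in SCC-61 cells (log2 fold change -0.58, SE 0.0928, adjusted p = 3.16e-06). By 24 h the PFKM values of the lines overlapped, at 7.34, 7.34 and 7.36 and 7.23, 7.61 and 7.38 (0.05, adjusted p = 0.631).

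PFKFB3 and PFKFB4 make and break the sugar phosphate that activates phosphofructokinase. PFKFB4 read 5.64, 5.71 and 5.63 at 2 h and 7.36, 7.45 and 7.37 at 24 h in HaCaT cells. It read 6.68, 6.69 and 6.68 at 2 h and 8.20, 8.37 and 8.28 at 24 h in SCC-61 cells. It rose 3.31-fold in HaCaT cells (log2 fold change 1.73, SE 0.0738, adjusted p = 1.45e-18) and 3.03-fold in SCC-61 cells (log2 fold change 1.60, SE 0.0738, adjusted p = 3.95e-17). The rises differed by -0.13 (95% interval -0.34 to 0.09, adjusted p = 0.359), and SCC-61 cells were higher by 1.02 at 2 h and 0.89 at 24 h. PFKFB3 rose by less (0.55 in HaCaT, adjusted p = 1.84e-10, and 0.39 in SCC-61, adjusted p = 2.72e-07) and was lower in SCC-61 cells at 2 h (-0.22) and 24 h (-0.38). The second feature of PFKFB3 gave -0.01 and -0.02 over time, neither past the threshold.

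Of the enzymes from triose phosphate to lactate, PKM, the pyruvate kinase of dividing cells, set the lines apart. It read 10.85, 10.86 and 10.86 at 2 h and 10.73, 10.77 and 11.01 at 24 h in HaCaT cells. It read 9.83, 9.77 and 9.78 at 2 h and 9.67, 9.96 and 9.81 at 24 h in SCC-61 cells. It was about 1 log2 unit lower in SCC-61 cells at 2 h (log2 fold change -1.07, SE 0.0686, adjusted p = 3.52e-14) and 24 h (log2 fold change -1.02, SE 0.0686, adjusted p = 5.43e-14), and its other 2 features gave -1.58 and -1.34 at 2 h. Over time it was at -0.02 in HaCaT cells (95% interval -0.16 to 0.12) and 0.03 in SCC-61 cells (95% interval -0.11 to 0.17) by this feature, while the other 2 fell in both lines (-0.64 and -0.32 in HaCaT, -0.54 and -0.24 in SCC-61).

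LDHA, which turns pyruvate into lactate, was close to the top of the scale, where the highest value of the table is 13.96 and differences can be compressed. It read 13.27, 13.23 and 13.17 at 2 h and 13.14, 13.17 and 13.20 at 24 h in HaCaT cells. It read 13.41, 13.39 and 13.38 at 2 h and 13.15, 13.15 and 13.12 at 24 h in SCC-61 cells. It fell in SCC-61 cells (-0.25, adjusted p = 1.54e-05) and was at -0.06 in HaCaT cells (adjusted p = 0.29). At 2 h it was higher in SCC-61 cells (0.17, adjusted p = 0.00176). The dimmest of its 3 features gave -0.79 and 0.62 for the same 2 comparisons.

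GAPDH, often taken as a reference gene, was not level across the groups. It read 12.76, 12.75 and 12.75 at 2 h and 12.88, 12.79 and 12.90 at 24 h in HaCaT cells. It read 12.59, 12.63 and 12.54 at 2 h and 12.34, 12.53 and 12.42 at 24 h in SCC-61 cells. It was lower in SCC-61 cells at 2 h (-0.17, adjusted p = 0.00374) and at 24 h (-0.42, adjusted p = 4.17e-09), and the other 2 features gave -0.61 and -0.61 at 24 h. Over time its value was -0.16 in SCC-61 cells, lost without replicate 1 at 24 h (-0.11), and 0.10 in HaCaT cells (adjusted p = 0.0685). The other 2 features had higher means at 24 h than at 2 h in untreated HaCaT cells, 12.35 against 12.23 and 11.47 against 11.15.

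PGAM1, which moves the phosphate of phosphoglycerate, fell in SCC-61 cells from 10.78, 10.83 and 10.74 to 10.22, 10.16 and 10.25 (log2 fold change -0.57, SE 0.0619, adjusted p = 4.1e-09). In HaCaT cells it gave -0.12 (adjusted p = 0.103). TPI1, which interconverts the triose phosphates, fell in SCC-61 cells (-0.35, adjusted p = 4.92e-07) and was lower there than in HaCaT cells at 24 h (-0.49, adjusted p = 4e-10). At 2 h TPI1 was at -0.17 by this feature and 0.21 by the other. PGK1, the first step of the pathway to yield ATP, rose in HaCaT cells (0.30, adjusted p = 0.00014) and gave -0.14 in SCC-61 cells (adjusted p = 0.0649). Its second feature was lower at 24 h in untreated SCC-61 cells, with means of 10.26 at 2 h and 9.79 at 24 h and no overlap of arrays. In untreated HaCaT cells the means of that feature were 9.84 and 9.97.

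ENO1, the common enolase, was higher in SCC-61 cells at 2 h (0.16, adjusted p = 0.000696) and 24 h (0.39, adjusted p = 2.26e-10). It fell in HaCaT cells from 12.98, 12.95 and 12.98 to 12.67, 12.71 and 12.73 (-0.27, adjusted p = 3.79e-07). The SCC-61 value was -0.04, with a 95% interval of -0.11 to 0.04. ENO2, the neuronal enolase isoform, rose in SCC-61 cells from 5.83, 5.73 and 5.87 to 6.29, 6.54 and 6.44 (log2 fold change 0.61, SE 0.11, adjusted p = 2.31e-05). It gave 0.30 in HaCaT cells, a value lost without replicate 2 or 3 at 24 h (0.28 and 0.23) or replicate 2 or 3 at 2 h (0.29 and 0.24).

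AMP-18 moved these genes little. Across the 4 comparisons of AMP-18 with no treatment, log2 fold changes of the 33 genes ranged from -0.37 to 0.32 by the brightest feature of each. By these features no gene changed by as much as 2-fold. The second BNIP3L feature had means of 5.33 untreated and 4.84 with AMP-18 in SCC-61 cells at 24 h (7.84 and 7.92 by the first). The second TPI1 feature had means of 11.08 and 10.69 in SCC-61 cells at 2 h (11.72 and 11.72 by the first). Neither second feature had overlapping arrays there. In SCC-61 cells at 2 h, 4 of the 33 genes rose and 0 fell, where 9.53% of all genes changed. In SCC-61 cells at 24 h, 0 of the 33 passed limma's test, where 0.344% of all genes passed. At an unadjusted p under 0.05 there were 4 of the 33, and 2189 of all 21580 kept features. In HaCaT cells at 2 h, 0 of the 33 passed, where 0% of all genes passed. At an unadjusted p under 0.05 there were 4 of the 33, and 1653 of the 21580 features. In HaCaT cells at 24 h, 1 rose and 3 fell, where 1.9% of all genes changed. The study's methods name a t-test for its experiments in general and describe a ranking by Fisher's ratio for the arrays. In the last 3 comparisons this t-test called 0 of the 33 after Benjamini-Hochberg adjustment, and 1, 4 and 9 at an unadjusted p under 0.05. It called 0 of the 33 after adjustment in SCC-61 cells at 2 h as well, and 7 before it. The share of all genes called by this t-test was not counted. The keratinocyte markers moved with AMP-18 in SCC-61 cells at 2 h, with a summed intensity of 9390 to 10000 untreated and 12100 to 12500 treated, and their part in these values was not tested.

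**Figure D4:**
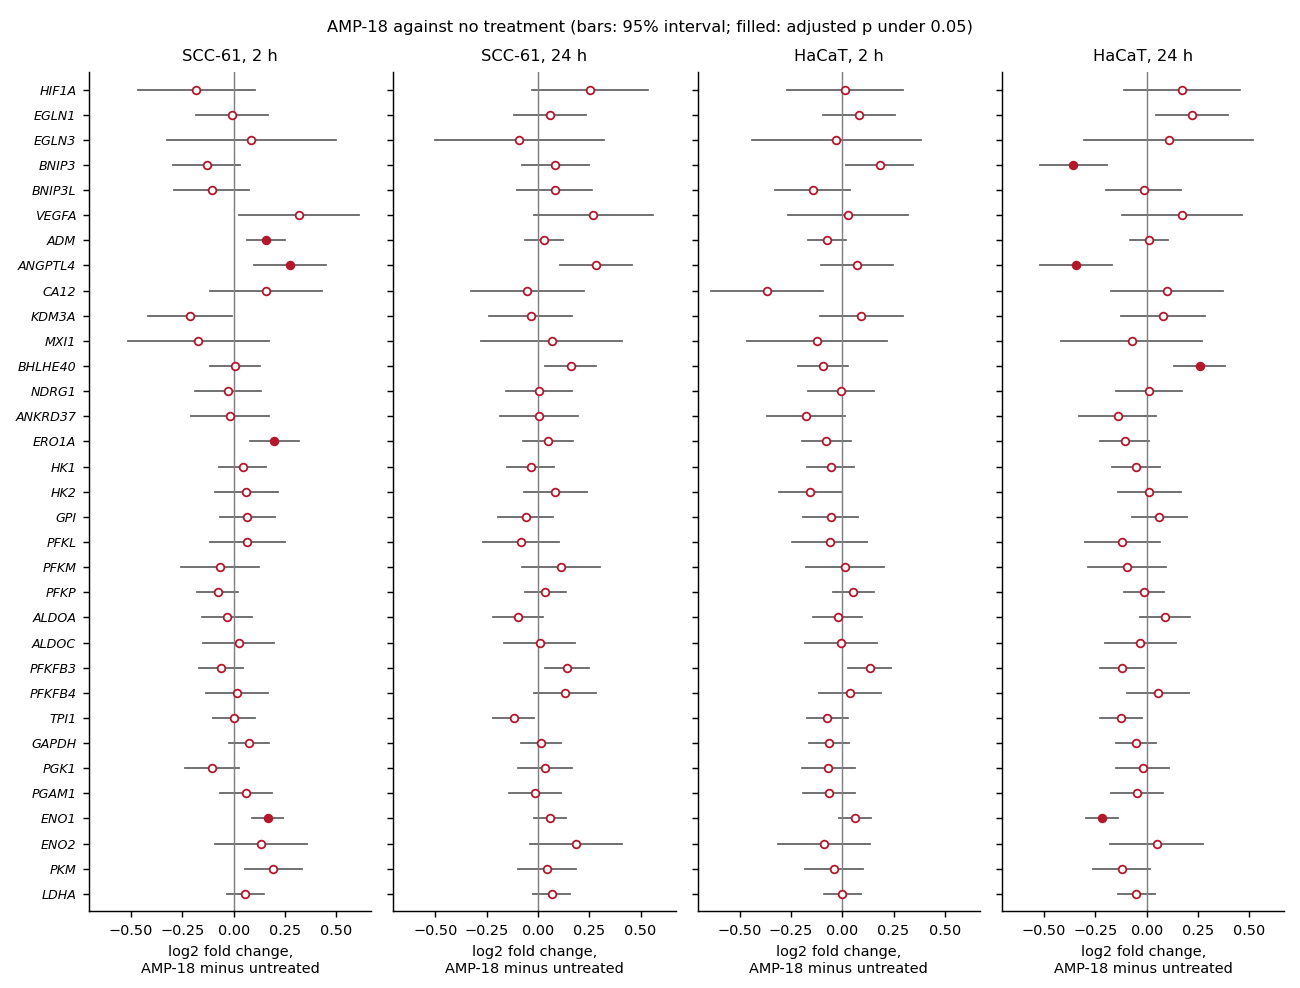
Log2 fold change of AMP-18 against no treatment for the 33 genes in the 4 combinations of line and time, with 95% intervals of the limma fit and filled points where the adjusted p was under 0.05. All points lie between -0.37 and 0.32, and 8 points are filled.

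The 4 genes that rose in SCC-61 cells at 2 h were ENO1, ADM, ERO1A and ANGPTL4. ENO1 read 13.13, 13.15 and 13.09 untreated and 13.29, 13.31 and 13.27 with AMP-18, near the top of the scale (log2 fold change 0.16, SE 0.0376, adjusted p = 0.00553). It passed on leaving out each array in turn. ADM read 12.04, 11.98 and 11.995 untreated and 12.12, 12.23 and 12.14 with AMP-18 (log2 fold change 0.16, SE 0.0453, adjusted p = 0.0287). It was lost without untreated replicate 2 or 3 (0.14 and 0.15) or AMP-18 replicate 2 (0.12). ERO1A read 9.0, 9.02 and 9.04 untreated and 9.22, 9.18 and 9.26 with AMP-18 (log2 fold change 0.20, SE 0.0588, adjusted p = 0.0315). It was lost without any of the 3 untreated arrays or AMP-18 replicate 1 or 3 (0.18 to 0.21). ANGPTL4 read 7.27, 7.20 and 7.17 untreated and 7.56, 7.54 and 7.36 with AMP-18 (log2 fold change 0.28, SE 0.0862, adjusted p = 0.0424). It was lost without any of the 3 untreated arrays or AMP-18 replicate 1 or 2 (0.24 to 0.30), its second feature gave -0.01, and with the mean of its features the value was 0.13 and did not pass. For each of the 4 genes all 3 treated arrays were above all 3 untreated arrays. This was not particular to them: the arrays did not overlap for 9 of the 33 genes, and the share over all genes was not counted. PKM (0.19, adjusted p = 0.0772) and VEGFA (0.32, adjusted p = 0.184) came next by p and did not pass.

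In HaCaT cells at 24 h, ENO1 fell, from 12.67, 12.71 and 12.73 untreated to 12.49, 12.46 and 12.50 with AMP-18 (log2 fold change -0.22, SE 0.0376, adjusted p = 0.00251). It passed on leaving out each array in turn. BNIP3 fell, from 8.02, 8.15 and 8.17 to 7.80, 7.75 and 7.72 (log2 fold change -0.36, SE 0.0797, adjusted p = 0.0169), a call lost without untreated replicate 2 (-0.34) or AMP-18 replicate 3 (-0.34). BHLHE40 rose, from 10.50, 10.45 and 10.35 to 10.63, 10.67 and 10.78 (log2 fold change 0.26, SE 0.0604, adjusted p = 0.0242), a call lost without untreated replicate 2 or 3 (0.27 and 0.22) or AMP-18 replicate 3 (0.21). ANGPTL4 fell, from 6.46, 6.52 and 6.49 to 6.05, 6.21 and 6.18 (log2 fold change -0.34, SE 0.0862, adjusted p = 0.0355), a call lost without any of the untreated arrays or AMP-18 replicate 1 or 3 (-0.36 to -0.30). Its second feature gave -0.09 and did not pass, and with the mean of its features the value was -0.21, not past the threshold. The treated and untreated arrays did not overlap for any of the 4 genes, nor for some genes not called (9 of the 33 in all, share over all genes not counted). With only the 6 arrays compared in the fit, 0 of these 4 calls and 0 of the 4 in SCC-61 cells at 2 h passed.

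In SCC-61 cells at 24 h the smallest p was that of ANGPTL4, which read 6.75, 7.13 and 6.96 untreated and 7.17, 7.28 and 7.23 with AMP-18 (log2 fold change 0.28, SE 0.0862, adjusted p = 0.199). PFKFB3 (0.14, adjusted p = 0.293), BHLHE40 (0.16, adjusted p = 0.312) and TPI1 (-0.12, adjusted p = 0.376) followed. In HaCaT cells at 2 h, CA12 had the smallest p, with both groups below background. PFKFB3 (0.13, adjusted p = 0.509), BNIP3 (0.18, adjusted p = 0.576) and HK2 (-0.16, adjusted p = 0.646) followed. HIF1A itself was at -0.18 and 0.25 with AMP-18 in SCC-61 cells at 2 h and 24 h and at 0.01 and 0.17 in HaCaT cells, none past the threshold, and the 4 intervals together span -0.47 to 0.54.

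The difference of the AMP-18 effect between lines passed for ADM at 2 h (difference 0.23, SE 0.064, adjusted p = 0.0394), where 4.29% of all genes passed. It was lost without SCC-61 untreated replicate 2 or 3, SCC-61 AMP-18 replicate 2, any HaCaT untreated replicate, or HaCaT AMP-18 replicate 1 or 2 (0.20 to 0.24), and with the replicate number as a block. At 24 h it passed for ANGPTL4 (difference 0.63, SE 0.122, adjusted p = 0.0292) and ENO1 (difference 0.27, SE 0.0532, adjusted p = 0.0292), where 0.205% of all genes passed. The ANGPTL4 values were 0.28 in SCC-61 cells and -0.34 in HaCaT cells, and the call was lost without SCC-61 untreated replicate 1, any SCC-61 AMP-18 replicate, HaCaT untreated replicate 1 or 2, or HaCaT AMP-18 replicate 1 (0.53 to 0.65). The second feature of ANGPTL4 gave a difference of -0.04, and with the mean of its features the value was 0.29, not past the threshold. The ENO1 call was lost without SCC-61 untreated replicate 3, SCC-61 AMP-18 replicate 1 or 3, or HaCaT untreated replicate 2 (0.25 to 0.27). BNIP3 (0.44) came next and did not pass (adjusted p = 0.0851).

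The difference of the AMP-18 effect between 24 h and 2 h passed in HaCaT cells for ENO1 (difference -0.28, SE 0.0532, adjusted p = 0.0246) and BNIP3 (difference -0.54, SE 0.113, adjusted p = 0.0356), where 0.221% of all genes passed. ENO1 was lost without replicate 2 of the untreated arrays at 24 h, AMP-18 replicate 1 at 24 h, any untreated array at 2 h or AMP-18 replicate 2 at 2 h (-0.28 to -0.27). BNIP3 was lost without untreated replicate 2 or AMP-18 replicate 1 or 3 at 24 h, or untreated replicate 1 or 2 or AMP-18 replicate 2 or 3 at 2 h (-0.56 to -0.48). In SCC-61 cells the same difference passed for 0 of the 33 genes, where 2.12% of all genes passed. At an unadjusted p under 0.05 there were 2 of the 33, and 2902 of all 21580 kept features.

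Other genes of the same pathways, listed with earlier results of these data known, gave the setting. Of 16 genes of oxygen sensing, 14 were kept, and in untreated HaCaT cells 8 rose and 2 fell from 2 h to 24 h, with a median of 0.27 (0.018 over all genes, of which 33.1% rose and 31.5% fell). In SCC-61 cells 5 rose and 4 fell, with a median of 0.07 (29% and 29% of all genes). EPAS1, which encodes HIF-2 alpha, rose in HaCaT cells (1.27, adjusted p = 5.59e-15) and in SCC-61 cells (0.47, adjusted p = 5.74e-06) and was higher in SCC-61 cells at 2 h (1.87) and 24 h (1.07). VHL rose in HaCaT cells (0.37, adjusted p = 0.000106) and in SCC-61 cells (0.53, adjusted p = 7.95e-07). ARNT, the partner of HIF-1 alpha, rose in HaCaT cells (0.85, adjusted p = 0.000917) and gave 0.08 in SCC-61 cells (adjusted p = 0.79). Between the lines, 7 of the 14 were higher and 1 lower in SCC-61 cells at 2 h (31.3% and 32% of all genes), and 4 were higher and 5 lower at 24 h (33.9% and 36.6% of all genes).

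Of 38 further HIF targets, 34 were kept. In untreated HaCaT cells 14 rose and 7 fell, with a median of 0.22, and in SCC-61 cells 15 rose and 3 fell, with a median of 0.23, where 33.1% and 29% of all genes rose and 31.5% and 29% fell. DDIT4, an inhibitor of mTOR signalling, rose in HaCaT cells (2.67, adjusted p = 3.92e-26) and in SCC-61 cells (1.70, adjusted p = 1.25e-20). SLC2A3, a glucose transporter, rose in SCC-61 cells (1.88, adjusted p = 3.13e-11) and gave 0.28 in HaCaT cells (adjusted p = 0.14), a difference of 1.60 (adjusted p = 1.1e-06). SLC2A1, the main glucose transporter, gave 0.08 in HaCaT cells (adjusted p = 0.155) and -0.08 in SCC-61 cells (adjusted p = 0.201). P4HA1, a prolyl hydroxylase of collagen, rose in HaCaT cells (1.64, adjusted p = 1.22e-20), and STC2, a secreted glycoprotein, fell there (-1.62, adjusted p = 5.08e-18). At 24 h, 17 of the 34 were higher and 7 lower in SCC-61 cells (33.9% and 36.6% of all genes). At 2 h, 19 were higher and 6 lower (31.3% and 32% of all genes), led by IGFBP3, which binds insulin-like growth factors (2.62, adjusted p = 1.11e-26), and PLOD2, a lysyl hydroxylase of collagen (2.50, adjusted p = 1.6e-25). LOX, which crosslinks collagen, was not detected in HaCaT cells at 2 h and was at least 4.19-fold higher in SCC-61 cells.

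Of 33 further genes of glycolysis and pyruvate use, 19 were kept. In untreated HaCaT cells 8 rose and 4 fell, with a median of 0.23, where 33.1% of all genes rose and 31.5% fell. In SCC-61 cells 6 rose and 9 fell, with a median of -0.07, where 29% rose and 29% fell. Between the untreated lines, 2 of the 19 were higher and 9 lower in SCC-61 cells at 2 h (31.3% and 32% of all genes). At 24 h, 7 were higher and 9 lower (33.9% and 36.6% of all genes). PDK3, a kinase of the same family as PDK1, rose in HaCaT cells (2.22, adjusted p = 1.79e-19) and in SCC-61 cells (0.87, adjusted p = 8.73e-10) and was higher in SCC-61 cells at 2 h (2.94) and 24 h (1.59). FBP1, which runs the phosphofructokinase step in reverse, rose in HaCaT cells (1.39, adjusted p = 1.31e-12) and was lower in SCC-61 cells at 2 h (-2.40) and 24 h (-3.67, adjusted p = 6.09e-23). TIGAR, which removes the activator of phosphofructokinase, fell in HaCaT cells (-1.30, adjusted p = 4.4e-14) and in SCC-61 cells (-1.09, adjusted p = 5.47e-12). LDHB, the other main lactate dehydrogenase subunit, fell in HaCaT cells (-0.65, adjusted p = 2.44e-10) and in SCC-61 cells (-0.63, adjusted p = 9.14e-10), and was higher in SCC-61 cells at 2 h (0.57) and 24 h (0.60). Of the 34 HIF targets and the 19 glycolysis genes, AMP-18 raised 3 and 2 and lowered 1 and 4 in SCC-61 cells at 2 h, where 9.53% of all genes changed. In HaCaT cells at 24 h it lowered 3 of the 34 and raised 0, where 1.9% of all genes changed.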

How the data were processed

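RNA of 24 samples was hybridised to Illumina HumanHT-12 v4 bead arrays and scanned on an Illumina HiScan. The authors deposited a table of log2 intensity values with a detection p-value for each of 47323 features, made with GenomeStudio 2011.1 according to the submitters' processing notes. The normalization and background correction are not given in the sources used here. The deposited log2 values were used unchanged: array medians lay between 4.218 and 4.22, so the arrays had been brought to a common scale, and a shift shared by most genes of an array would not be seen. A detection p-value of the deposited table compares a feature with negative controls, and it was used only to call a feature detected (under 0.05). No read depth applies to arrays, and precision rests on 3 arrays a group.

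Features were named from the platform annotation, which gave 1 symbol to 30113 features, several to 8 and none to 17202. Features detected on all 3 arrays of at least 1 group were kept (21580, of which 5041 had no symbol), and each gene was represented by the kept feature with the highest mean over the 24 arrays. Group means of the 8 groups were fitted with limma 3.58.1 in R 4.3.3 (lmFit, then eBayes with a variance trend, 16 residual and 12.62 prior degrees of freedom). P-values were adjusted by Benjamini-Hochberg over all 21580 kept features. Effects of line, time and AMP-18, and the differences of effects between lines or times, were contrasts of this fit, and the fit was tested on simulated data. A t-test between 2 groups, named in the methods for the study in general and not for the arrays, was run as an alternative. Where 1 group of a comparison was not detected on any array, the fold is a lower bound against the lowest detected signal of each array. No p-value is given beside such a bound, since the fit tested the measured values and not the bound.

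The genes, the pathway and marker lists and the tests were chosen with earlier results of these data known. Array values and statistics are given for up to 6 genes with the largest change in each direction of each untreated comparison, for up to 6 with the smallest p in each AMP-18 comparison, and for HIF1A, EGLN1, EGLN3, VEGFA, BNIP3, ADM, LDHA, HK2 and GAPDH whatever they showed. Promoter sequences are RefSeq windows of build GRCh38.p14, and the windows of 3 genes (BNIP3L, VEGFA and NDRG1) were not used here.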

Additional observations from a re-analysis of the deposited data

Results flagged for a closer look

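The 33 genes were looked at for a difference of an effect between lines or between times, tested as a contrast of its own by limma with p-values adjusted over all features. Groups of 3 arrays were too small for a test of single outlying arrays.

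The change from 2 h to 24 h in untreated cells differed between the lines for 23 of the 33 genes. It was more negative in SCC-61 than in HaCaT cells for 18 of them (23.6% of all genes). Of the HIF targets and regulators these were BNIP3 (-2.36), BNIP3L (-1.92), ADM (-1.27), CA12 (-1.25), KDM3A (-1.17), NDRG1 (-0.95), BHLHE40 (-0.90), MXI1 (-0.86), ANKRD37 (-0.67) and EGLN1 (-0.35). CA12 was not detected in HaCaT cells and MXI1 was not detected in most arrays, so these 2 values depend on signal at background. Of the glycolytic enzymes they were ALDOC (-4.63), ALDOA (-0.80), PGAM1 (-0.46), PGK1 (-0.45), GPI (-0.41), TPI1 (-0.33), GAPDH (-0.26) and LDHA (-0.20). It was more positive for VEGFA (1.56), HK2 (1.48), ERO1A (1.05), PFKM (0.64) and ENO1 (0.23), as it was for 22% of all genes. The second feature of HK2 gave 0.22, which did not pass. The EGLN1 call was lost without SCC-61 untreated replicate 1 at 24 h (-0.31) or replicate 1 or 3 at 2 h (-0.30 and -0.28), and with no filter. The LDHA call was lost with cyclic loess (-0.15) and without a variance trend.

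The effect of AMP-18 differed between the lines at 2 h for ADM (0.23) and at 24 h for ANGPTL4 (0.63) and ENO1 (0.27). The second feature of ANGPTL4 gave -0.04, which did not pass. In HaCaT cells it differed between 24 h and 2 h for BNIP3 (-0.54) and ENO1 (-0.28). Each of these 5 calls was lost on leaving out 1 of several arrays, named in the report.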

How the results depend on the processing

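Of 140 changes called for single genes, 108 passed under every alternative tried for them, 30 failed the threshold under at least 1 and 2 changed sign. The t-test is not among these alternatives, since it was used only to count called genes. The stricter filter removed CA12, EGLN3 and MXI1, so their changes were not tried under it. The 2 that changed sign did so with the mean of all kept features of a gene, TPI1 between the lines at 2 h (0.0221) and HK1 over time in SCC-61 cells (-0.0245). Among the 33 genes, the number called in untreated cells stayed within 1.5 times the main number under every alternative. On leaving out 1 array it was 26 to 27 (lines, 2 h), 26 to 28 (lines, 24 h), and 22 to 25 for the time course in SCC-61 cells, in HaCaT cells and for their difference. Counting only the 30 genes detected on all 24 arrays, a choice made after seeing the data, gave 24, 23, 24, 24 and 21 in the same order.

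The calls for AMP-18 moved more. With only the arrays compared, 0 passed in SCC-61 cells at 2 h, 0 in HaCaT cells at 24 h, 0 for the difference of lines at 24 h and 1 for the difference of times in HaCaT cells. Without a variance trend the numbers were 1, 1, 0 and 0, and 0 for the difference of lines at 2 h. With no filter they were 1 in SCC-61 cells at 2 h, 0 for each difference of lines and 1 for the difference of times in HaCaT cells. The difference of lines at 2 h gave 2 with the stricter filter, 2 with cyclic loess, 3 with array weights and 3 with the mean of features, and that at 24 h gave 1 with the mean of features. With array weights 1 gene passed in SCC-61 cells at 24 h. The t-test that the methods name for the study in general gave 0 after adjustment in SCC-61 cells at 2 h and in HaCaT cells at 24 h. Without adjustment it gave 7, 1, 4 and 9 (SCC-61 2 h and 24 h, HaCaT 2 h and 24 h), and its share over all genes was not counted. On leaving out 1 array the numbers were 1 to 4 in SCC-61 cells at 2 h, 1 to 4 in HaCaT cells at 24 h, 0 to 1 and 0 to 2 for the differences of lines at 2 h and 24 h, and 0 to 2 for the difference of times in HaCaT cells. The cause of these moves was not tested.

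Replicates share numbers 1 to 3 across groups. Treated and untreated arrays of 1 line, time and number did not deviate together (12 pairs of arrays, correlation of deviations -0.16 to 0.048). The numbers thus gave no sign of pairing there, and arrays of different lines or times were not compared in this way. With the replicate number as a block, 26 genes were called between the lines at 2 h, 26 at 24 h, 26 over time in each line, 3 for AMP-18 in SCC-61 cells at 2 h, 4 in HaCaT cells at 24 h and 0 for the difference of lines at 2 h.

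LDHA, ENO1 and GAPDH lie near the top of the scale, where differences can be compressed (not tested here), and EGLN3, CA12 and MXI1 lie at background in several groups.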
